A study of Mus musculus with 7 samples.

Results

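Hyaluronan is a long sugar polymer that fills the matrix between cells. The 9 genes described here make it, break it down or bind it, and they were named by gene symbol: the hyaluronan synthases Has1, Has2 and Has3, the hyaluronidases Hyal1 and Hyal2, the receptor gene Cd44, the versican gene Vcan, Tnfaip6 for the protein TSG-6, and the link protein gene Hapln1. Each symbol matched 1 of the 53465 rows of the table of estimated counts, so all 9 members were found. Expression was read in 7 libraries of polyadenylated RNA. EMT6, a mouse mammary carcinoma cell line, was grown in the mammary fat pad of young adult female Balb/c mice, and antibody at 250 μg per mouse was given every 3 days up to the institutional endpoint. There were 3 EMT6-P tumors under the isotype control and 3 EMT6-PTR tumors under anti-PD-L1, a variant selected from mice whose tumors grew again under treatment, and 1 metastasis of the resistant variant with no replicate. The labels write PDR for PTR, and they do not state the organ of the metastasis. They number the tumors of each group, but do not say whether each came from its own mouse, and the study calls its replicates technical wherever it says nothing else. The 3 libraries of a group, called tumors here, may therefore be technical replicates, and p-values measure only the spread between them. All 7 are whole tissue, in which fewer cells of a type and less RNA per cell cannot be told apart.

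Hyaluronan is made at the plasma membrane by the synthases, which join 2 sugar nucleotides in turn and push the growing chain out of the cell. Outside, the chain is held in place by binding proteins: versican, a large chondroitin sulfate proteoglycan, is fixed to it by link protein, and TSG-6 couples it to the heavy chains of the inter-alpha-trypsin inhibitor. CD44 is the main cell surface receptor for hyaluronan on leukocytes, fibroblasts and many carcinoma cells. HYAL2 cuts the long chain at the cell surface and HYAL1 digests the pieces in lysosomes. In mammary tumors this matrix is commonly rich in the stroma.

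Values are given as CPM, counts relative to the upper-quartile-scaled size of the library. Total estimated counts ran from 20430110 to 25213472 per library, and a count of 0 allowed up to 3 counts, or 0.119 to 0.147 CPM. That limit, like the count intervals below, covers counting error only. EMT6-PTR replicate 3 stood apart from the other primary tumors before any member was considered. Its summed CPM over 6 epithelial markers was 611 against 2378 to 2728 in the other 5, over 6 cycling markers 109.8 against 755 to 907, over 10 fibroblast markers 21480 against 5818 to 9518, and over 8 tendon and cartilage markers 1083 against 51.1 to 264. Of the fibroblast markers 7 of 10 had their highest primary tumor value there, as did 5 of 8 tendon and cartilage markers, while Thy1 and Dpt were at their lowest. EMT6-PTR replicate 1 held 3970 CPM of 6 skeletal muscle markers against 3.56 to 593 in the other primary tumors. In EMT6-PTR replicate 2, 13.8% of all counts lay on the single gene CT010467.1. The metastasis held 8227 CPM of 6 lung markers, against at most 26.1 in any primary tumor. Their part in the results below was not tested, and member differences that rest on 1 library are given with and without it.

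The promoters of 5 members are shown because their RNA in 1 resistant tumor stood far from the EMT6-P mean, for Hapln1, Vcan, Tnfaip6 and Cd44 in replicate 3 and for Has1 in replicate 2. Has2, which was also far from it in replicate 3, and Has3 are named only. Each line holds the 250 bases before the RefSeq start site on build GRCm38.p6, on the gene's own strand. Capitals mark the motifs found in the search described after them.
Has1, chr17:17855189-17855438, minus strand: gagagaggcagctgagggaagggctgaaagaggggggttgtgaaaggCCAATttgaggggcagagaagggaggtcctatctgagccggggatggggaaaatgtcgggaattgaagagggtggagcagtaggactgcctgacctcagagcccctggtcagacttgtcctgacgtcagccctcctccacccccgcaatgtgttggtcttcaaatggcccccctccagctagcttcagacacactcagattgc
Cd44, chr2:102901666-102901915, minus strand: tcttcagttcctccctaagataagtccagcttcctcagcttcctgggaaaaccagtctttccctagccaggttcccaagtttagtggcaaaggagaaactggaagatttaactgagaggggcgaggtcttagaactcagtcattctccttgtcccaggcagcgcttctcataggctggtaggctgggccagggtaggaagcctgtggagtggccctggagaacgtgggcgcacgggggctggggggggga
Vcan, chr13:89742513-89742762, minus strand: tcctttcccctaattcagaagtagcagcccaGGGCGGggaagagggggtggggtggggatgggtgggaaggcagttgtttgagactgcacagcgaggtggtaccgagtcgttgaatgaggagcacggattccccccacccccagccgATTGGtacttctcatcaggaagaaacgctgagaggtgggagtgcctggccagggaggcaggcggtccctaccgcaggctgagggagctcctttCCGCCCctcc
Tnfaip6, chr2:52037863-52038112, plus strand: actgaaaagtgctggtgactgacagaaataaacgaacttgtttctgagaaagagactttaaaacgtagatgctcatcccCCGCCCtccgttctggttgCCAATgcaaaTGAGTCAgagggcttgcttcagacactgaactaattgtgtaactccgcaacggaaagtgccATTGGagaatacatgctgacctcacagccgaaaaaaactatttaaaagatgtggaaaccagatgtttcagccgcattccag
Hapln1, chr13:89540386-89540635, plus strand: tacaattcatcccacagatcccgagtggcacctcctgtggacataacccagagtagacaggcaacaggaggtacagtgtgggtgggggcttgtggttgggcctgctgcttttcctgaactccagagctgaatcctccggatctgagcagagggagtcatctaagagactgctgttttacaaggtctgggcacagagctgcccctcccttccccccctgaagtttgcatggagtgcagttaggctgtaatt

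The set of RefSeq windows used here covered 7 members, these and Hyal1 and Hyal2, and held none for Has2 or Has3. By the gene positions given below, the Hapln1 and Hyal2 windows lie inside the annotated gene. Those of Tnfaip6, Has1 and Hyal1 run into it, so these windows may hold transcribed sequence. Both strands were searched for the TATA box (TATAAA), the CCAAT box (CCAAT), the GC box (GGGCGG), the AP-1 element (TGANTCA) and 1 fixed form of the NF-kappaB element, and matches were allowed to overlap. Among the 7 windows the AP-1 element stood only in the Tnfaip6 window, at positions -142 to -136 from the start site, and in 6.75% of 32851 mouse promoter windows of the same length. The Tnfaip6 window also held the CCAAT box at 2 places and the GC box at 1. The CCAAT box was present in 4 of the 7 windows (Has1, Hyal1, Tnfaip6 and Vcan) and in 33.8% of all windows. The GC box was present in 4 (Hyal1, Hyal2, Tnfaip6 and Vcan) and in 32.7% of all. The Cd44 and Hapln1 windows held none of the 5 motifs, and none of the 7 held the TATA box or the NF-kappaB element, which stood in 12.4% and 0.14% of all windows.

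Vcan (ENSMUSG00000021614.16, minus strand) lies on chromosome 13 of GRCm38 from 89655312 to 89742509, and Hapln1 (ENSMUSG00000021613.9, plus strand) from 89539796 to 89611652. The genes are neighbors, with 43659 bases and 0 protein-coding genes between them. Hyal2 (ENSMUSG00000010047.12) and Hyal1 (ENSMUSG00000010051.15) lie side by side on the plus strand of chromosome 9, from 107567945 to 107572779 and from 107576927 to 107581710. Exons of Naa80 on the same strand cover 50.8% of the Hyal1 exon bases, so the estimated counts of these 2 genes depend on how reads were divided between them. Has2 (ENSMUSG00000022367.7) lies on chromosome 15 from 56665627 to 56694539, minus strand. It shares 182 exon bases with the antisense gene Has2os. Has1 (ENSMUSG00000003665.6) is on chromosome 17 from 17843323 to 17855205, and Has3 (ENSMUSG00000031910.14) on chromosome 8 from 106870242 to 106884566. Cd44 (ENSMUSG00000005087.17) and Tnfaip6 (ENSMUSG00000053475.5) are on chromosome 2, from 102811141 to 102901665 and from 52038009 to 52056686.

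The first question was whether the synthases differed between EMT6-PTR and EMT6-P tumors. Has2, the synthase that embryos need for heart development, stood at 45.9, 50.04 and 53.6 CPM in EMT6-P replicates 1 to 3. It stood at 89.0, 42.9 and 12.2 CPM in EMT6-PTR replicates 1 to 3. One resistant tumor thus lay above every EMT6-P tumor and the others below. Relative to the EMT6-P mean the level was 1.79-fold in replicate 1 and 0.245-fold in replicate 3. Mean Has2 was 49.9 ± 3.86 CPM (SD, n = 3) for the EMT6-P tumors, and for the resistant ones 48.1 ± 38.6 CPM (SD, n = 3). By edgeR's quasi-likelihood test the log2 fold change was -0.053 (standard error 0.62) and the p adjusted over all genes 0.976. Leaving out replicate 1 of the resistant tumors gave a log2 fold change of -0.86, while leaving out their replicate 3 gave 0.40.

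Has1, the synthase gene usually least active in adult tissue, had 24, 2 and 12 counts in EMT6-P replicates 1 to 3, or 1.17, 0.0934 and 0.566 CPM. In EMT6-PTR replicates 1 to 3 it had 66, 476 and 29 counts, or 2.88, 26.5 and 1.13 CPM. Replicate 2 was far above the rest, replicate 1 was above all EMT6-P tumors, and replicate 3 fell within their range, so the groups overlapped. Between groups Has1 differed by 4.05 on the log2 scale (standard error 1.40), with an unadjusted p of 0.0253 and an adjusted p of 0.427 (edgeR). It was 1.71 without EMT6-PTR replicate 2, with an adjusted p of 0.508. DESeq2 was the only alternative to call it, with a log2 fold change of 4.09 and an adjusted p of 0.0279. The metastasis also had a high level, with 333 counts or 13.3 CPM. Both EMT6-PTR replicate 2 and the metastasis were at least 2-fold above each of the other 5 libraries, a pattern shared by 0.358% of the 15645 genes tested. That pattern was drawn from the Has1 values themselves, so its share is a description and no test.

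Has3 was close to the limit of detection, its counts being 6, 6 and 10 for EMT6-P replicates 1 to 3, then 15, 6 and 15 for EMT6-PTR. Its levels were 0.292, 0.280 and 0.472 CPM against 0.655, 0.334 and 0.586 CPM, and the groups overlapped. Has3 differed by 0.60 on the log2 scale (standard error 0.45, edgeR adjusted p 0.595). Exons of Chtf8 on the opposite strand share 352 bases with Has3, and Chtf8 stood at 58.5 to 118.7 CPM in the primary tumors. Whether the counting used strand is not given in the sources used here, so reads of the 2 genes may not have been separated in these bases.

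Because exon lengths differ, the synthases were compared with each other as CPM per kilobase of merged exons. On this scale Has2 made up 97.3%, 99.5% and 98.5% of the synthase RNA in EMT6-P replicates 1 to 3. Its share was 96.6%, 63.1% and 89.4% in EMT6-PTR replicates 1 to 3, below every EMT6-P tumor. Mean shares were 98.4% ± 1.10 (SD, n = 3) for EMT6-P against 83.0% ± 17.6 (SD, n = 3) for the resistant tumors, and these differed by -15.4 percentage points. An exact two-sided permutation test over the 20 assignments gave p = 0.1, the smallest value that 3 against 3 tumors allow, and 0.2 after adjustment over the 2 ratios tested here. The difference was -5.4 percentage points without EMT6-PTR replicate 2. Has1 made up most of the rest in every library except EMT6-P replicate 2, where Has3 had 0.370% and Has1 0.174%. Has1 reached 36.5% of synthase RNA in EMT6-PTR replicate 2 but 2.93% and 7.77% in the other two. In CPM, replicate 2 had the highest Has1 and replicate 3 the lowest Has2.

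**Figure D1:**
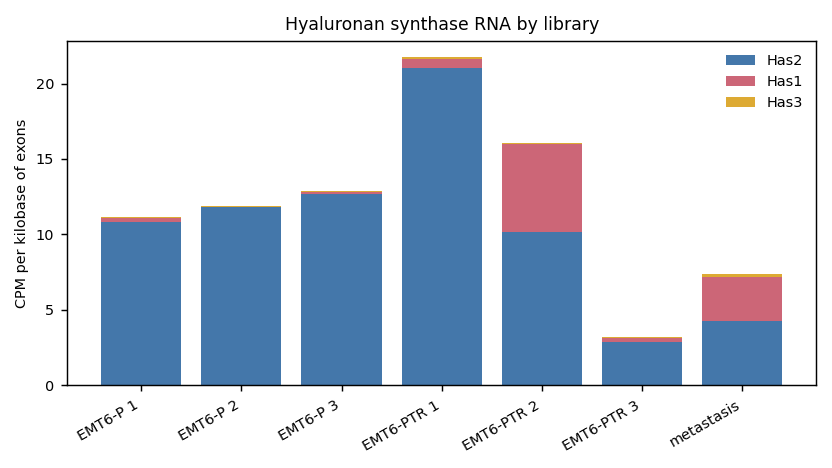
Stacked bars give CPM per kilobase of merged exons of Has2, Has1 and Has3 in each of the 7 libraries, on a linear axis from 0. Has2 fills almost the whole bar in the EMT6-P tumors (97.3% to 99.5%), while Has1 takes 36.5% in EMT6-PTR replicate 2 and 39.99% in the metastasis, and the bar of EMT6-PTR replicate 3 is the lowest.

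Among the resistant tumors the hyaluronidases varied less than Has1 and Has2. Hyal2 stood at 57.2, 50.1 and 59.3 CPM in EMT6-P and at 52.6, 43.8 and 29.3 CPM in EMT6-PTR replicates 1 to 3. EMT6-PTR replicates 2 and 3 were below every EMT6-P tumor and replicate 1 was among them. For Hyal2 the log2 fold change came to -0.41 (standard error 0.23, edgeR adjusted p 0.504). Hyal1 stood at 18.3, 30.9 and 15.8 CPM in EMT6-P and at 20.5, 29.4 and 16.8 CPM in EMT6-PTR, with fully overlapping ranges. Between groups Hyal1 differed by 0.032 on the log2 scale (standard error 0.32, edgeR adjusted p 0.971). The log2 ratio of summed synthase to summed hyaluronidase RNA, per length, was -0.99, -0.98 and -0.79 in EMT6-P and 0.024, -0.39 and -2.05 in EMT6-PTR replicates 1 to 3. The resistant tumors thus lay on both sides of the EMT6-P tumors, and the difference of means was 0.12 (exact permutation test, p = 1). Without EMT6-PTR replicate 3 the difference was 0.74 and without EMT6-PTR replicate 1 it was -0.30.

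Cd44 had the highest level of all members in each library except EMT6-PTR replicate 3, where Vcan exceeded it per length at 26.8 against 21.0 CPM per kilobase. The receptor stood at 429, 479 and 460.3 CPM in EMT6-P replicates 1 to 3 and at 391, 499.9 and 142 CPM in EMT6-PTR replicates 1 to 3. EMT6-PTR replicate 3 was far below the rest, at 0.312-fold of the EMT6-P mean, while replicates 1 and 2 lay just outside the EMT6-P range on either side. The level in replicate 3 was at most 50% of that in each other library, which held for 4.17% of all genes tested. This rule followed the Cd44 values, so the share describes them only. For Cd44 the log2 fold change came to -0.41 (standard error 0.42, edgeR adjusted p 0.701). This became -0.036 without EMT6-PTR replicate 3. In that tumor the leukocyte and macrophage list was at 0.519-fold and the epithelial list at 0.232-fold of the EMT6-P mean, while the fibroblast list was at 3.23-fold. None of the 10 leukocyte and macrophage markers and none of the 6 epithelial markers had its highest primary tumor value there.

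Vcan stood at 172, 160.3 and 202 CPM in EMT6-P replicates 1 to 3 and at 166, 263 and 388 CPM in EMT6-PTR replicates 1 to 3. EMT6-PTR replicates 2 and 3 exceeded all EMT6-P tumors and replicate 1 was within their range. Mean Vcan was 272 ± 111.2 CPM (SD, n = 3) against 178 ± 21.4 CPM (SD, n = 3). Its log2 fold change was 0.61 (standard error 0.31), with an unadjusted p of 0.0891 and an adjusted p of 0.476 (edgeR). Without EMT6-PTR replicate 3 it was 0.27.

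Tnfaip6 stood at 3.56, 3.88 and 6.27 CPM in EMT6-P and at 5.37, 7.46 and 22.2 CPM in EMT6-PTR replicates 1 to 3. The order of the resistant tumors was the one seen for Vcan, with replicate 3 highest, replicate 2 next and replicate 1 among the EMT6-P tumors. Tnfaip6 differed by 1.35 on the log2 scale (standard error 0.58), with an unadjusted p of 0.0543 and an adjusted p of 0.442 (edgeR). It was 0.49 without EMT6-PTR replicate 3. Tnfaip6 is on the study's preliminary list of secretory genes raised in EMT6-PTR, which was chosen on these samples, so its direction is not independent evidence.

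Hapln1 was nearly absent outside 1 tumor. It had 1, 0 and 0 counts in EMT6-P replicates 1 to 3, and 0, 4 and 219 counts in EMT6-PTR replicates 1 to 3. Only EMT6-PTR replicate 3, at 8.56 CPM, lay far above the limit set by 3 counts, which EMT6-PTR replicate 2 and the metastasis (6 counts) just passed. With 1 count in the 3 EMT6-P tumors together, the ratio of replicate 3 to them was 540.2, with an exact 95% counting interval from 95.9 to 21431. Against EMT6-PTR replicate 2 it was 38.4 (14.8 to 142). The gene did not pass the filter on low counts and was not tested. Even in EMT6-PTR replicate 3, link protein RNA per length was 5.40% of that of versican, and it was 0.208% in replicate 2. Fmod and Col11a1, of the tendon and cartilage list, were at 256 and 765 CPM in EMT6-PTR replicate 3, whereas the cartilage genes Col2a1 and Acan were at 0.664 CPM and 0 counts. The tendon gene Scx was at its lowest primary tumor value there, 11.4 against 26.1 to 51.5 CPM, Chad was at 0.0391 CPM and Tnmd at 0.

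**Figure D2:**
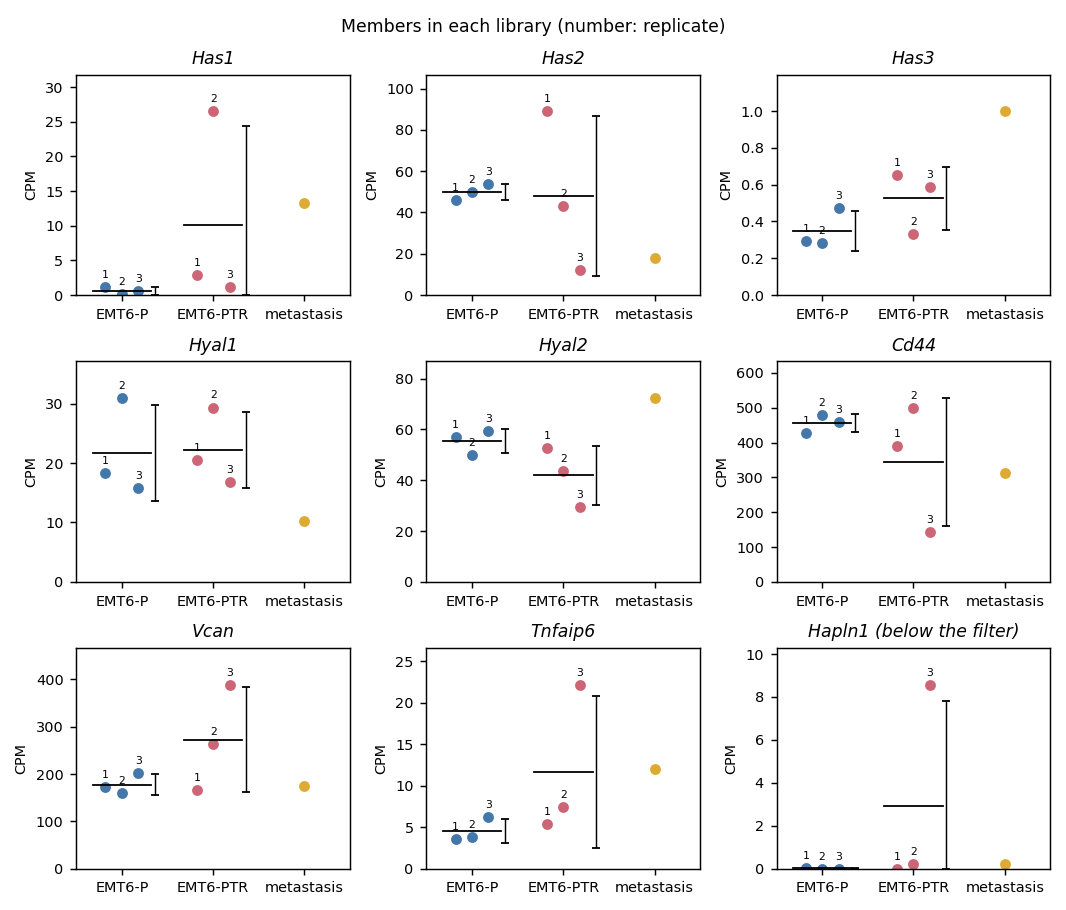
Each panel gives 1 member in CPM on a linear axis from 0, with 1 point per library and the replicate number above it. Lines are means and bars are SD over 3 tumors, drawn no lower than 0, and the EMT6-PTR points spread more widely than the EMT6-P points for Has2 (12.2 to 89.0 against 45.9 to 53.6 CPM), Cd44 and Vcan.

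The comparison called no member by edgeR. Of the 9 members, 8 passed the filter on low counts. Of these, 0 had an adjusted p under 0.05 in edgeR, as did 0 (0%) of the 15645 genes tested, and limma-voom also called 0. DESeq2 called 281 genes, of which Has1 was the only member. An unadjusted p under 0.05 was reached by 1 of the 8 (Has1) and by 11.4% of all genes. A fitted difference of at least 2-fold higher in EMT6-PTR was found for 2 of the 8 (Has1 and Tnfaip6) and for 6.27% of all genes, and at least 2-fold lower for 0 of the 8 and 1.29% of all. The groups did not overlap, with EMT6-PTR higher, for 0 of the 8 and 9.52% of all genes, and with EMT6-PTR lower for 0 of the 8 and 11.8%. The log2 fold change was above 0 for 5 of the 8, with a median of 0.31, and for 52.3% of all genes, with a median of 0.025. EMT6-PTR replicate 3 was at least 2-fold above each other library for 0 of the 8 tested members, and for 1.67% of all genes.

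**Figure D3:**
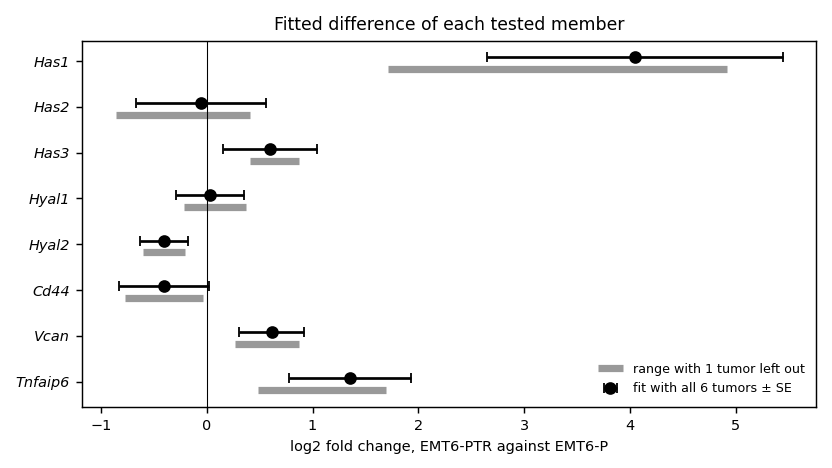
Points give the log2 fold change of EMT6-PTR against EMT6-P with its standard error for the 8 tested members, and gray bars give the range when 1 tumor is left out. The bars of Has2 (-0.86 to 0.40) and Hyal1 (-0.22 to 0.38) cross 0, and those of the other 6 stay on 1 side.

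For Has2, Cd44 and Vcan the EMT6-P tumors were closer to each other than the EMT6-PTR tumors were. The coefficient of variation of CPM was 7.75% for Has2 in EMT6-P and 80.4% in EMT6-PTR. It was 5.57% and 53.2% for Cd44, and 12.0% and 40.8% for Vcan. Hyal1 went the other way, with 37.3% and 29.2%, and Has3 was nearly equal, with 30.8% and 32.1%. Has1 varied widely in both groups, at 88.5% and 139%. The highest EMT6-PTR tumor exceeded the lowest 7.28-fold for Has2, 23.4-fold for Has1 and 1.79-fold for Hyal2, against 1.17-fold, 12.5-fold and 1.18-fold in EMT6-P. Over all genes tested, EMT6-P had a median SD of log2 CPM of 0.15 and EMT6-PTR one of 0.39, so a wider spread in EMT6-PTR was general. The SD of Has2 was 1.44 in EMT6-PTR, a value that 6.35% of all genes exceeded, and that of Has1 was 2.29, which 1.83% exceeded. The same share was 12.2% for Tnfaip6, 14.7% for Cd44 and 29.5% for Vcan. It was 44.7% for Has3, 47.6% for Hyal1 and 45.0% for Hyal2.

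**Figure D4:**
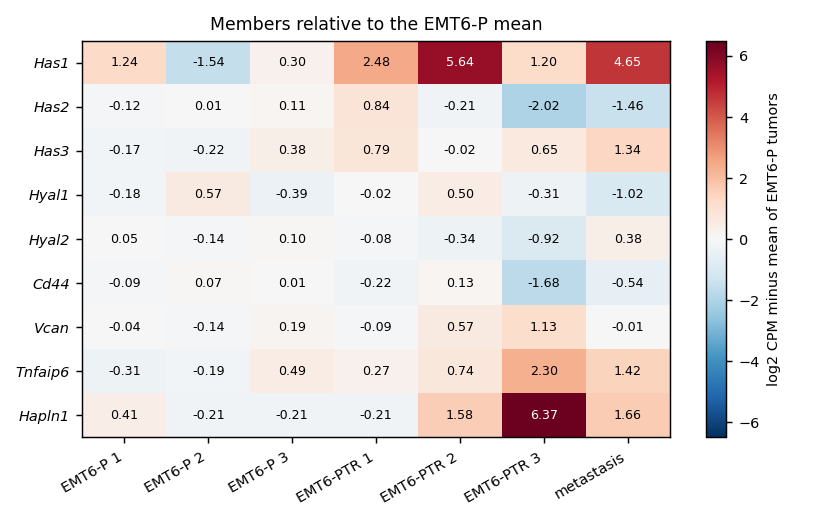
Cells give log2 CPM (prior count 2) minus the mean of the EMT6-P tumors for each member and library, with red above and blue below. In EMT6-PTR replicate 3, Hapln1 (6.37), Tnfaip6 (2.30) and Vcan (1.13) are high while Has2 (-2.02), Cd44 (-1.68) and Hyal2 (-0.92) are low, and Has1 is high in EMT6-PTR replicate 2 (5.64) and the metastasis (4.65).

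Per length, the order in EMT6-P was Cd44 at 67.3 CPM per kilobase, then Hyal2 at 16.9, Vcan at 12.3, Has2 at 11.8, Hyal1 at 5.74, Tnfaip6 at 2.67, Has1 at 0.135, Has3 at 0.0546 and Hapln1. The ranges of neighbors in this order overlapped for Vcan and Has2 and for Has1 and Has3, and the other neighbors were apart. In EMT6-PTR the order of means was Cd44, Vcan, Hyal2, Has2, Tnfaip6, Hyal1, Has1, Hapln1 and Has3, and the ranges of every pair of neighbors overlapped.

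The metastasis has 1 library, so its values carry no test and are set beside the primary tumors of its own group. Has1 was 13.3 CPM, within the range of the EMT6-PTR tumors, which had a mean of 10.2. Its log2 CPM lay 1.55 above the EMT6-PTR mean of log2 values. By counts alone, 333 of 810 synthase reads were from Has1, or 41.1% (exact 95% interval 37.7% to 44.6%), against 3.11%, 38.0% and 8.12% in EMT6-PTR replicates 1 to 3 and 0.185% to 2.47% in the EMT6-P tumors. The interval of EMT6-PTR replicate 2, 35.3% to 40.7%, overlapped that of the metastasis. Has2 was 18.1 CPM, between EMT6-PTR replicates 2 and 3, and made up 57.9% of synthase RNA per length. Hyal2 (72.3 CPM) and Has3 (0.999 CPM, 25 counts) were above all 6 primary tumors, and Hyal1 (10.2 CPM) was below them. Of all genes tested, 20.9% were above and 24.1% below all primary tumors in this library. Against the mean of log2 values in EMT6-PTR, Has1 was the 1 tested member at least 2-fold higher (12.4% of all genes) and Hyal1 the 1 at least 2-fold lower (8.58%, log2 difference -1.07). Neither reached 2-fold with every tumor left out in turn, since Has1 was at 0.59 without EMT6-PTR replicate 3 and Hyal1 at -0.85 without EMT6-PTR replicate 2. Against the mean of CPM the picture differed, as Has1 stood at 13.3 against 10.2 CPM and Has2 at 18.1 against 48.1 CPM. Cd44 at 312 CPM, Vcan at 175 CPM, Tnfaip6 at 12.0 CPM and Hapln1 at 0.240 CPM lay within the primary tumors' range. The lung and endothelial marker sums of this library, 8227 and 858 CPM, were the highest of all 7.

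Other genes of the hyaluronan pathway were read from lists. In the supply of sugar nucleotides, 0 of 8 genes passed the adjusted test, 6 of 8 log2 fold changes were below 0 and the median was -0.39. Ugdh, which makes UDP-glucuronate, stood at 177, 202 and 181 CPM in EMT6-P and at 174, 152 and 80.7 CPM in EMT6-PTR replicates 1 to 3. The smallest p-values were those of Gnpnat1 and Pgm3, both in the route to UDP-N-acetylglucosamine, and of Uap1l1. These 3 differed by -0.49, -0.49 and -0.42 on the log2 scale (edgeR adjusted p 0.427, 0.427 and 0.491). For Gnpnat1 and Pgm3 all EMT6-PTR tumors lay below all EMT6-P tumors, with 22.2 to 32.2 against 36.7 to 40.8 CPM and 12.3 to 16.7 against 18.7 to 21.1 CPM, as was so for 11.8% of all genes. Ugdh and Has2 thus had the same lowest primary tumor, EMT6-PTR replicate 3, as had every other gene of this list except Uap1l1. A link between Ugdh and Has2 was not tested.

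Among 8 other genes of hyaluronan breakdown, 6 were tested, 0 passed, and 3 lay above and 3 below 0. Cemip, whose product binds hyaluronan and promotes its breakdown, ranged over 13.6 to 23.7 CPM in EMT6-P and 15.1 to 21.6 CPM among the resistant tumors, and Cemip2 was 116 to 163 and 127 to 141 CPM. For both, the resistant tumors lay within the EMT6-P range. Hyal3 and Gusb were at 0.58 and -0.31 on the log2 scale (edgeR adjusted p 0.597 and 0.603).

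The matrix binders other than the members were mostly near 0, and only 3 of 13 passed the filter. Itih2 encodes a heavy chain that TSG-6 transfers to hyaluronan. It stood at 1.32, 0.327 and 0.943 CPM in EMT6-P and at 1.05, 9.25 and 92.9 CPM in EMT6-PTR replicates 1 to 3. Its 2 highest primary tumors were those of Tnfaip6, in the same order, and it was higher by 5.31 on the log2 scale (standard error 1.63, edgeR adjusted p 0.421). Without EMT6-PTR replicate 3 this became 2.56. Itih2 is also on the study's list chosen on these samples. Itih5 and Ptx3 were at 0.60 and 0.58 on the log2 scale (edgeR adjusted p 0.549 and 0.670). Acan, the aggrecan gene, had at most 0.0436 CPM in any library.

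Of 6 ADAMTS proteases known to cut versican, 5 were tested and 0 passed, with 3 at least 2-fold higher, as were 6.27% of all genes. Adamts5 stood at 19.8, 17.1 and 26.7 CPM in EMT6-P and at 26.3, 74.6 and 214 CPM in EMT6-PTR replicates 1 to 3. Adamts1 stood at 38.8, 41.3 and 43.4 CPM and at 52.1, 86.3 and 175 CPM, with all EMT6-PTR tumors above all EMT6-P tumors, as was so for 9.52% of all genes. Adamts5, Adamts1 and Adamts15 were at 2.31, 1.35 and 2.06 on the log2 scale (edgeR adjusted p 0.421, 0.421 and 0.433). Without EMT6-PTR replicate 3 they were at 1.25, 0.75 and 0.84. Adamts15 itself stood at 0.292, 0.981 and 0.802 CPM in EMT6-P and at 1.05, 1.45 and 6.21 CPM in EMT6-PTR. As with Adamts1, all its EMT6-PTR values lay above all its EMT6-P values. Adamts1 and Adamts15 belong to the study's list. Adamts4 went from 84.8 to 125 CPM in EMT6-P to 14.5 CPM in EMT6-PTR replicate 3, while replicates 1 and 2 were at 99.1 and 147 CPM.

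**Figure D5:**
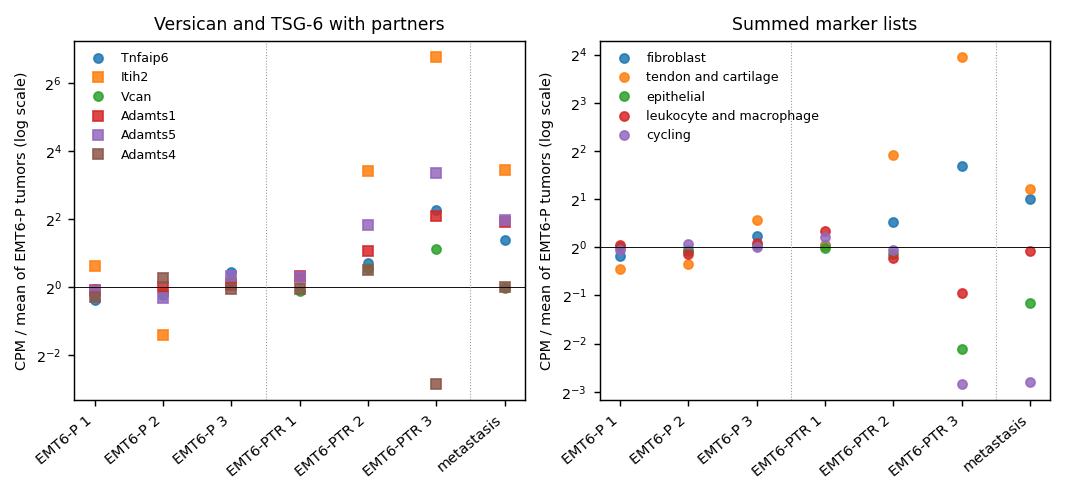
Points give the CPM of each library divided by the mean of the EMT6-P tumors on a log axis, for Tnfaip6, Vcan and partner genes (left) and for summed marker lists (right), with dotted lines between groups. In EMT6-PTR replicate 3, Itih2, Adamts5, Tnfaip6 (4.85), Adamts1 and Vcan (2.18) are high and Adamts4 is low, beside a fibroblast sum at 3.23, an epithelial sum at 0.232 and a cycling sum at 0.140.

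Of 7 other hyaluronan receptors, 6 were tested and 0 passed, with a median log2 fold change of 0.12. Hmmr, a receptor that is also a mitotic spindle gene, was 30.8 to 32.7 CPM in EMT6-P, 37.3 and 40.4 CPM in EMT6-PTR replicates 1 and 2, and 4.53 CPM in replicate 3. The cycling list was at 0.140-fold of the EMT6-P mean in that tumor, and its part in the Hmmr level was not tested. The smallest p-values were those of Tlr4, Lyve1 and Layn, at 0.41, 0.78 and -0.31 on the log2 scale (edgeR adjusted p 0.438, 0.497 and 0.544). For Tlr4 all EMT6-PTR tumors lay above all EMT6-P tumors, at 24.2 to 27.8 against 17.2 to 23.8 CPM. This pattern held for 9.52% of all genes. Lyve1, the lymphatic receptor, stood at 155 CPM in the metastasis and at 2.66 to 8.91 CPM in the primary tumors. Of 5 genes for cytoskeletal partners of CD44 and for osteopontin, 0 passed. Msn, which links CD44 to actin, was 1304 to 1575 CPM in EMT6-P and 467 CPM in EMT6-PTR replicate 3, the tumor lowest for Cd44. The list was mixed in that tumor. Ezr (101 CPM) and Spp1 (2594 CPM) were also at their lowest primary tumor values there, while Nf2 (280 CPM) and Rdx (165 CPM) were at their highest. Nf2, Spp1 and Rdx had the smallest p-values, at 0.60, -0.48 and 0.15 on the log2 scale (edgeR adjusted p 0.451, 0.504 and 0.611), and Nf2 was at 0.24 without EMT6-PTR replicate 3. As with Tlr4, all EMT6-PTR tumors lay above all EMT6-P tumors for Nf2 and Rdx. Nf2 was at 147 to 280 against 117 to 134 CPM, and Rdx at 150 to 165 against 141 to 148 CPM.

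The genes whose log2 CPM followed each of 4 members most closely over the 7 libraries were found among all genes tested. They describe these libraries only, which share tumors and scaling. For Vcan they were Fst, Bmpr1a and Ccdc186 (Pearson r 0.995, 0.991 and 0.991). Leaving out EMT6-PTR replicate 3, the farthest library, left r at 0.982, 0.972 and 0.969. For Tnfaip6 they were Snx32, Nck1 and Pik3r3 (0.997, 0.992 and 0.990), and for Cd44 Myadm, Ptk2b and Atf4 (0.994, 0.993 and 0.992). For Has2 they were Gm48709, Col27a1 and Jdp2 (0.993, 0.992 and 0.990). EMT6-PTR replicate 3 was the farthest library for these members too. Without it r was 0.981 to 0.992 for Has2 and Tnfaip6, and 0.954, 0.942 and 0.933 for Cd44. With 7 points such values were common, since 182 genes had an r above 0.95 with Has2, 167 with Tnfaip6, 98 with Cd44 and 49 with Vcan.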

How the data were processed

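The submitters' processing notes and the study's methods name stranded TruSeq libraries, FastQC 0.11.5, STAR 2.6.0a on GRCm38 with the GENCODE M16 genes, RSeQC and RSEM 1.3.1. The authors deposited RSEM expected counts per gene, unfiltered and unscaled, for 7 libraries, of which 13.5% to 15.6% of values per library are fractional. Whether RSEM used strand is not given in the sources used here. RSEM divides reads of overlapping or similar genes by estimation.

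Here the values were rounded. Genes passing filterByExpr in the 6 primary tumors entered edgeR's quasi-likelihood test (version 4.0.16 under R 4.3.3, functions glmQLFit and glmQLFTest) after upper-quartile scaling; p-values were adjusted by Benjamini-Hochberg over all genes tested, at a threshold of 0.05. The standard error is the size of the log2 fold change over the square root of F. CPM values divide counts by the upper-quartile size of each of the 7 libraries over the genes tested. Log2 CPM uses a prior count of 2. Levels per kilobase use merged exons of GENCODE M21 on the same assembly, which gave a symbol and position to 53360 of 53465 identifiers. Ratios were compared by exact permutation tests. Count intervals are exact (Clopper-Pearson, scipy 1.17.1). Promoter windows are RefSeq's on GRCm38.p6. Alternatives were TMM, DESeq2 1.42.0, limma-voom 3.58.1, other filters, the metastasis as a group, a replicate block, other lengths and each tumor left out.

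All members are named. Of each pathway list, the 3 genes with the smallest p are named (1 of them is not reported here), and 3 genes most alike for each of Has2, Vcan, Cd44 and Tnfaip6. Ugdh, Cemip, Cemip2, Acan, Hmmr, Msn, Adamts4, Fmod, Col11a1, Col2a1, Scx, Chad, Tnmd, Thy1 and Dpt were chosen after their values were seen. The members and lists were chosen with earlier results of these data known. The fits were tested on simulated data.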

Additional observations from a re-analysis of the deposited data

How the results depend on the processing

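No member and no gene was called by edgeR or limma-voom under any alternative, with 0 calls in each fit. DESeq2 called 281 genes, 138 higher and 143 lower in EMT6-PTR, and Has1 with them (log2 fold change 4.09). With each tumor left out, the log2 fold change of Has1 ranged from 1.71 to 4.92, of Has2 from -0.86 to 0.40, of Has3 from 0.41 to 0.87, of Hyal1 from -0.22 to 0.38, of Hyal2 from -0.61 to -0.21, of Cd44 from -0.77 to -0.036, of Vcan from 0.27 to 0.87 and of Tnfaip6 from 0.49 to 1.70. Has2 changed sign on leaving out replicate 3 of EMT6-P (0.0051) or, of EMT6-PTR, replicate 2 (0.027) or 3 (0.40). Hyal1 changed sign without EMT6-P replicate 1 (-0.076), EMT6-P replicate 3 (-0.15) or EMT6-PTR replicate 2 (-0.22). The synthase to hyaluronidase log2 ratio changed sign without EMT6-PTR replicate 1 (-0.30) and replicate 2 (-0.090), and reached 0.74 without replicate 3. The cause of these changes was not tested, and each of these fits also had fewer tumors. The Has2 share kept its direction, from -22.1 to -5.4 percentage points. With at least 10 counts in every tumor, Has1 and Has3 could not be fitted.

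The labels do not say whether equal replicate numbers pair the tumors. The deviations of same-numbered tumors correlated at 0.26, 0.25 and 0.038, and those of differently numbered tumors at -0.29 to 0.098. These values do not settle whether the tumors were paired. With a replicate block, 0 genes were called, and the log2 fold changes were 2.76 for Has1 and -0.44 for Has2, with 1268 genes at an unadjusted p under 0.05 against 1786 without it. Depth limits Has3 and Hapln1, which had 25 counts or fewer outside EMT6-PTR replicate 3.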

Other observations

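The antisense gene of Has2, Has2os, was at 0.926, 0.888 and 0.707 CPM in EMT6-P and at 0.873, 0.835 and 4.22 CPM in EMT6-PTR replicates 1 to 3. It was highest in the tumor where Has2 was lowest. Gm4117, which lies antisense within Vcan and shares 0 exon bases with it, was at 1.495 to 2.36 CPM in EMT6-P and at 2.09, 1.06 and 4.92 CPM in EMT6-PTR replicates 1 to 3, highest where Vcan was highest. Both genes were chosen after their values were seen.

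Itih4 encodes an inter-alpha-trypsin inhibitor heavy chain-like protein and stood at 50.9 CPM in the metastasis and at most 0.146 CPM in the primary tumors. Gfpt2, which feeds the hexosamine route, stood at 32.7 CPM in the metastasis and at 1.02 to 5.47 CPM in the primary tumors. Adamts9 and Adamts15 were at 54.0 and 16.2 CPM there, against at most 11.5 and 6.21 CPM. This library had the highest lung marker sum, and the part of that tissue in these values was not tested.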
